A study of Drosophila melanogaster with 6 samples.

Results

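The proteasome is the protease that degrades proteins tagged with ubiquitin. This account follows the genes for its subunits in the adult fat body of Drosophila melanogaster, the tissue that in flies does much of the work of liver and fat. Members were chosen by name alone. Every gene whose current symbol begins with Prosalpha, Prosbeta, Rpn or Rpt followed by a digit was taken, which gave 47 of the 15682 genes in the count table. They comprise 7 genes for the alpha ring and 7 for the beta ring of the core particle. The regulatory particle gave 6 ATPases of its base, 4 other base subunits and 8 subunits of its lid. The remaining 15 genes are variant copies, whose symbols carry an R or a T after the name of the subunit they resemble. Members lie on all the large chromosome arms, with 8 on 2L, 13 on 2R, 7 on 3L, 13 on 3R and 6 on X.

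The RNA came from dissected fat bodies of Wolbachia-positive white Dahomey females, 7 to 10 days old. In FB-Dp110DN flies (3 libraries) a fat body driver switched on a dominant-negative Dp110, which blocks the phosphoinositide 3-kinase that acts below the insulin receptor, and Dp110 is that kinase's catalytic subunit. FB-GAL4 flies (3 libraries) carried the same driver and no Dp110DN, so both groups share the driver. The comparison asks which transcripts differ when insulin signalling is lowered in this tissue alone.

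Protein degradation by the proteasome is divided between its parts. Rings of alpha subunits gate the core particle and rings of beta subunits hold its active sites. The ATPases of the regulatory particle unfold the substrate and pass it into the core, while the lid and the remaining base subunits bind ubiquitin chains and remove them. Subunits are built into a common complex in fixed numbers, and their genes are widely known to be expressed together. Insulin signalling has been tied to the proteasome elsewhere: in mammals the kinase complex TORC1 acts on proteasome gene expression. That result does not come from the flies described here.

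Library totals ran from 22607341 to 36870161 counts, and 10398 genes had enough counts to be tested. Pi3K92E, which encodes Dp110 and is the gene overexpressed by design, had 892, 1246 and 343 CPM (library counts scaled to a common size with TMM factors) in the FB-Dp110DN libraries. It had 81.0, 89.9 and 94.0 CPM in the FB-GAL4 libraries, so the labels held. Its log2 fold change was 3.05 with a standard error of 0.40, yet edgeR did not call it (adjusted p = 0.153), while DESeq2 did (adjusted p = 5.17e-17). A gene that is not called in edgeR here may therefore still differ. Replicate 3 of both groups stood apart in the RNA of marker genes. The summed level of 15 muscle genes was 41400 CPM in FB-Dp110DN replicate 3 and 21969 CPM in FB-GAL4 replicate 3, against 6031 to 9386 CPM in the other libraries. None of the 8 fat body markers was at or under the floor of 3 counts in every library, and all were tested. Their sums ran from 54316 to 73955 CPM in FB-Dp110DN and from 23196 to 68768 CPM in FB-GAL4. Replicate 3 had the lowest of these sums in each group. Ovary genes were also present, at 2785 to 3996 CPM against 3310 to 4060 CPM, and 10 of 12 had lower estimates in FB-Dp110DN. Markers of other cells leaned to higher estimates, with 14 of 15 for muscle, 11 of 11 for gut proteases, 7 of 8 for fat body, 6 of 6 for hemocytes and 4 of 4 for neurons. Sums did not overlap for hemocytes (223 to 265 CPM in FB-Dp110DN, 180 to 203 CPM in FB-GAL4) and neurons (145 to 181 CPM against 104 to 130 CPM). Gut protease genes summed to 4912 to 24553 CPM against 5295 to 20432 CPM, with the lowest sum of each group in replicate 3. The part of these cells in the results below was not tested. In such bulk samples fewer cells of a type and less RNA per cell cannot be told apart.

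The transcripts of the canonical proteasome were abundant and nearly level between the groups. None of the subunit genes was called different, at a Benjamini-Hochberg adjusted p under 0.05 in edgeR's quasi-likelihood test with the replicate number as a block. Over all tested genes 3 were called, or 0.0289%, so a count of 0 among the members carries little on its own. More can be read from the estimates and their intervals. Prosalpha1 and the variant copies had very low counts and are described apart below, which leaves 31 canonical subunits that had between 2163 and 9491 counts in each library. Their log2 fold changes, FB-Dp110DN over FB-GAL4, ran from -0.23 to 0.03 with a median of -0.10. The median of all tested genes was 0.04.

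Standard errors of the 31 estimates ran from 0.114 to 0.150 on the log2 scale. Every one of the 31 intervals (95%) held 0, and none held a 1.5-fold change in either direction. The lowest lower bound was -0.55 and the highest upper bound was 0.32, which are folds of 0.681 and 1.25. Changes of 1.5-fold therefore lay outside the interval of each canonical subunit taken by itself in this TMM-scaled fit. That statement depends on the scaling. With library totals alone the estimates of the 31 ran from -0.45 to -0.18, and intervals for that fit are not given here. An unadjusted p under 0.05 was reached by 0 of the 31, while 26.1% of all tested genes reached it. The lowest adjusted p among the 31 was 0.268 in edgeR. DESeq2's Wald test, which called 970 of 9084 genes (10.7%), also called 0 of the 31, with a lowest adjusted p of 0.391.

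**Figure D1:**
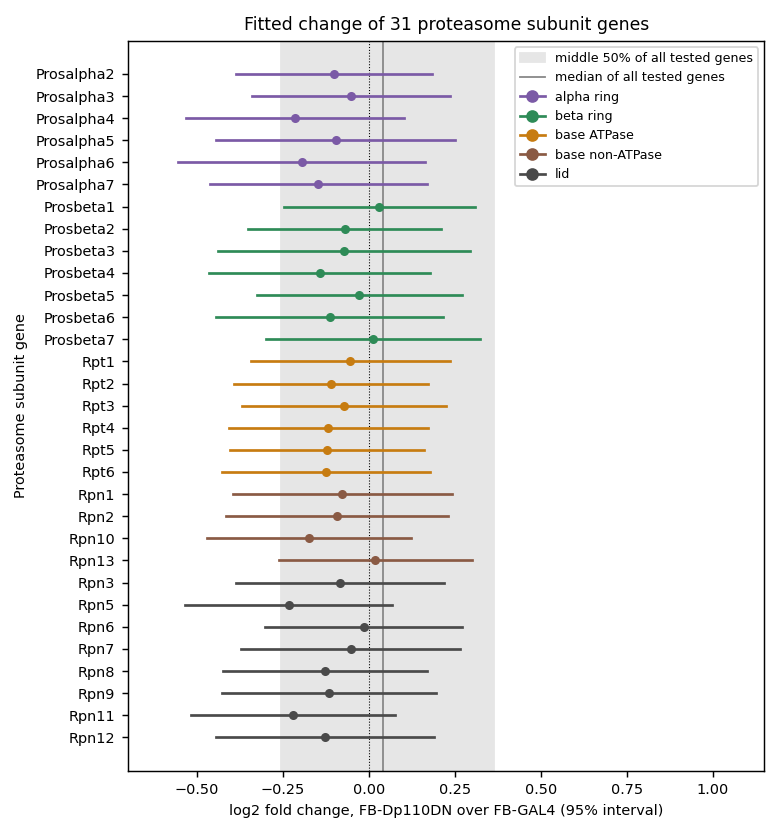
Log2 fold change (FB-Dp110DN over FB-GAL4) of the 31 canonical proteasome subunits, grouped by role, with bars for 95% intervals from the edgeR fit. All intervals cross 0, the estimates lie between -0.23 and 0.03, and the grey band is the middle 50% of all tested genes, which runs from -0.26 to 0.36.

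Estimates leaned to the lower side by a small amount. They were below 0 for 28 of the 31 subunits and below the median of all genes for 31 of 31, whereas 46.4% of all tested genes had an estimate below 0. The subunits moved together across libraries, as described below, so they are not 31 separate observations. Their middle lay at percentile 37.7 of all tested genes. Their spread was small, with an interquartile range of 0.07 against 0.62 for all genes. By role, medians were -0.12 for the alpha ring, -0.07 for the beta ring, -0.11 for the base ATPases, -0.08 for the other base subunits and -0.12 for the lid. Differences between roles were not tested.

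The lean depended on the pair of libraries. In pair 1, the libraries that share replicate number 1, the FB-Dp110DN library was lower for 27 of 31 subunits, with a median log2 difference of -0.10. In pair 2 it was lower for 30 of 31, with a median of -0.24, and in pair 3 for 12 of 31, with a median of 0.03. The pairs also differed in the overexpressed gene: the log2 difference of Pi3K92E was 3.46, 3.79 and 1.87 in pairs 1, 2 and 3. Whether the lean goes with that level was not tested. All 3 pairs ran lower for 10 of the 31 and higher for 1, while 27.7% of all tested genes were lower and 28.3% higher in all 3 pairs. FB-Dp110DN replicate 2 was the lowest library for 23 of 31 subunits. Without replicate 2 the median of the 31 was -0.02, against -0.08 without replicate 1 and -0.15 without replicate 3.

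The alpha ring is made of 7 different subunits whose tails close the entrance to the core. Its most negative estimate was that of Prosalpha4. Prosalpha4 had 142, 119 and 136 CPM in FB-Dp110DN and 167, 157 and 138 CPM in FB-GAL4. The ranges met only at the lowest FB-GAL4 library and the highest FB-Dp110DN library. The log2 fold change was -0.22 with a standard error of 0.13 (edgeR, adjusted p = 0.316). Prosalpha3, at the other end of the ring's range, had 129, 117 and 141 CPM against 139, 127 and 134 CPM. Here the highest library of all was FB-Dp110DN replicate 3, and the log2 fold change was -0.05 with a standard error of 0.12. Prosalpha2, Prosalpha5, Prosalpha6 and Prosalpha7 lay between the pair.

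The beta ring holds the proteolytic sites on Prosbeta1 (caspase-like), Prosbeta2 (trypsin-like) and Prosbeta5 (chymotrypsin-like). Prosbeta1 had 104.6, 90.9 and 91.8 CPM in FB-Dp110DN and 101.6, 89.2 and 90.3 CPM in FB-GAL4. It was the only canonical subunit higher in all 3 pairs, each time by a few percent of its level, and the groups overlapped. Its log2 fold change of 0.03 with a standard error of 0.11 was the highest of the 31 (edgeR, adjusted p = 0.875). Prosbeta2 had 158, 145 and 138 CPM against 168, 156 and 140 CPM, a log2 fold change of -0.07 with a standard error of 0.11. Prosbeta5 had 129, 116 and 124 CPM against 137, 127 and 113 CPM, a log2 fold change of -0.03 with a standard error of 0.12. All 3 catalytic subunits thus had overlapping groups, and replicate 1 was the highest library of each group. Prosbeta4, a structural subunit and the lowest estimate of the ring, had 104.9, 86.2 and 108.1 CPM against 114.7, 109.9 and 104.4 CPM. Its log2 fold change was -0.14 with a standard error of 0.13.

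Base ATPases form the motor of the regulatory particle. Rpt1 had 150.6, 136.9 and 156.8 CPM in FB-Dp110DN and 152.4, 154.3 and 153.9 CPM in FB-GAL4, so that its control libraries were almost equal. Its log2 fold change was -0.05 with a standard error of 0.12 (edgeR, adjusted p = 0.780). Rpt6 had 176, 160 and 176 CPM against 195.8, 191.2 and 172.0 CPM, a log2 fold change of -0.13 with a standard error of 0.12. The 6 ATPases were the most uniform role, with estimates between these values. Rpt5 was the only ATPase whose groups did not overlap, with 114 to 126 CPM against 130 to 131 CPM.

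Among the other base subunits, Rpn1 and Rpn2 are large scaffolds, and Rpn10 and Rpn13 are receptors for ubiquitin chains. The receptors sat at the ends of the range. Rpn10 had 136, 126 and 138 CPM in FB-Dp110DN and 151, 157 and 143 CPM in FB-GAL4. The groups did not overlap, and the log2 fold change was -0.17 with a standard error of 0.12 (edgeR, adjusted p = 0.382). Rpn13 had 135, 124 and 118 CPM against 131, 129 and 113 CPM, a log2 fold change of 0.02 with a standard error of 0.12. Its groups overlapped almost completely.

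The lid carries Rpn11, the metalloprotease that cuts ubiquitin off the substrate. Rpn11 had 118, 104 and 103 CPM in FB-Dp110DN and 125, 132 and 121 CPM in FB-GAL4. The highest FB-Dp110DN library lay just under the lowest FB-GAL4 library, and the log2 fold change was -0.22 with a standard error of 0.12 (edgeR, adjusted p = 0.281). Rpn5, a scaffold subunit of the lid, had 194, 161 and 175 CPM against 209, 209 and 203 CPM. All its FB-Dp110DN libraries were below all its FB-GAL4 libraries, and its log2 fold change of -0.23 with a standard error of 0.12 was the most negative of the 31 (edgeR, adjusted p = 0.268). Rpn6, another lid subunit, had 263, 247 and 238 CPM against 270, 250 and 236 CPM. The groups lay over each other, with a log2 fold change of -0.02, a standard error of 0.12 and a 95% interval from -0.30 to 0.27.

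Groups did not overlap for 5 of the 31 subunits, namely Rpt5, Rpn5, Rpn10, Rpn11 and Rpn12, and FB-Dp110DN was the lower group in each. Over all tested genes 32.6% had groups that did not overlap, 21% in the lower direction. All 5 belong to the regulatory particle, but the members' share is under the background, and none passed the test.

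**Figure D2:**
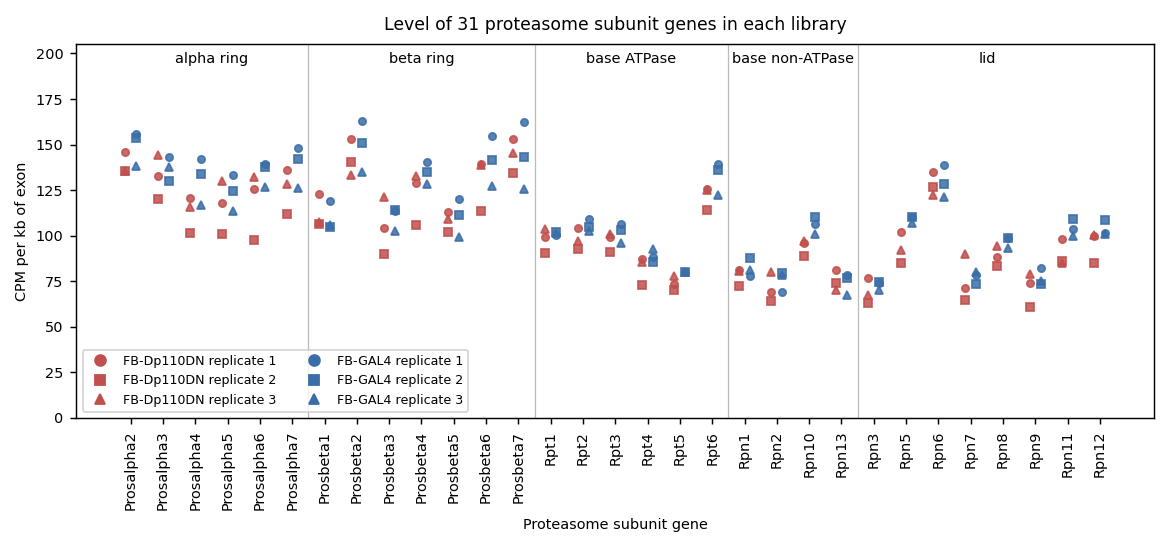
Level of each canonical proteasome subunit in the 6 libraries, in TMM-scaled CPM per kilobase of exon on a linear axis from 0, with red marks for FB-Dp110DN, blue for FB-GAL4 and a different mark for each replicate number. The marks of a gene lie close together, and FB-Dp110DN replicate 2 is the lowest for 23 of 31.

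Summing the subunits gave the same picture on this scale. The 31 genes added up to 4519, 3992 and 4488 CPM in FB-Dp110DN and to 4784, 4690 and 4429 CPM in FB-GAL4, means of 4333 ± 296 and 4634 ± 184 (SD, n = 3 each). FB-GAL4 replicate 3 lay below FB-Dp110DN replicates 1 and 3, so the groups overlapped. The 13 core genes summed to 1694, 1461 and 1671 CPM against 1838, 1722 and 1579 CPM, and overlapped too. The 18 genes of the regulatory particle summed to 2826, 2532 and 2817 CPM against 2946, 2968 and 2850 CPM. These sums did not overlap, by a margin of 2826 to 2850 CPM, and they were not tested. The ratio of the core sum to the regulatory sum, which is not corrected for gene length, was 0.600, 0.577 and 0.593 in FB-Dp110DN and 0.624, 0.580 and 0.554 in FB-GAL4. FB-GAL4 libraries held both the highest and the lowest ratio.

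The summed level depended on the scale of measurement. As a plain share of all counts in a library, without TMM scaling, the 31 genes took 0.446%, 0.371% and 0.391% in FB-Dp110DN and 0.489%, 0.512% and 0.497% in FB-GAL4, and these shares did not overlap. TMM factors ran from 0.872 to 0.986 in FB-Dp110DN and from 1.02 to 1.12 in FB-GAL4. Transcripts of the mitochondrial genome took 8.31%, 8.36% and 17.1% of the counts in FB-Dp110DN and 8.02%, 6.84% and 12.3% in FB-GAL4. With mitochondrial, muscle and gut protease genes taken out of the total, the 31 genes took 0.504%, 0.420% and 0.496% against 0.548%, 0.562% and 0.587%, still without overlap. A fit scaled by library totals alone put the members' median at -0.32, with a lowest adjusted p of 0.116 in edgeR. In that fit an unadjusted p under 0.05 was reached by 6 of the 31 and by 3022 of the 10398 tested genes. The same scaling moved the median of all genes to -0.17. Relative to the median gene the members stood at -0.14 under either scaling. A lower share of all counts and a nearly level TMM-scaled value are thus both properties of these libraries, and the amount of RNA per cell was not measured.

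**Figure D3:**
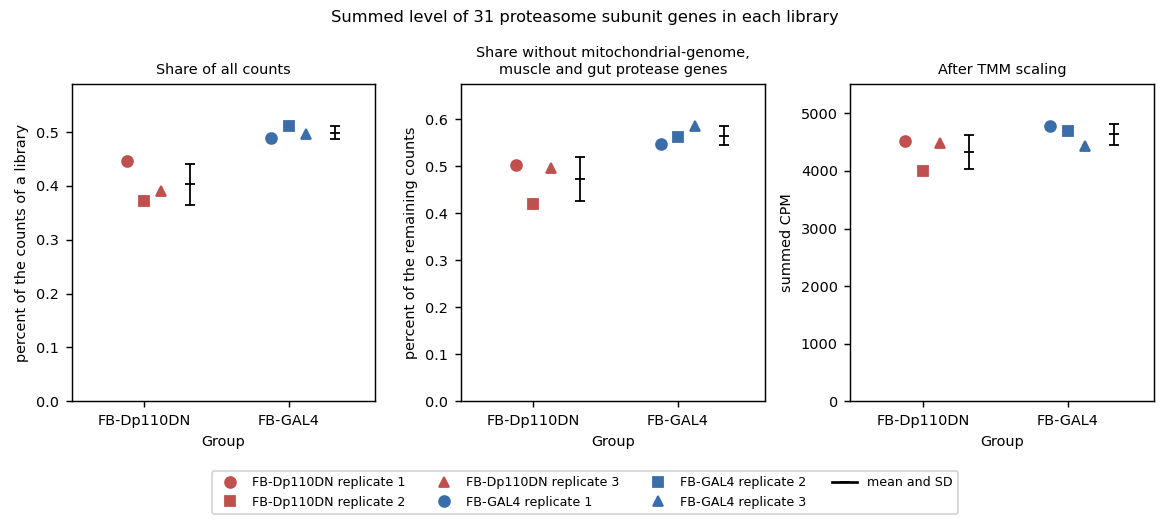
Summed level of the 31 canonical subunits in each library as percent of all counts, as percent of counts left after mitochondrial-genome, muscle and gut protease genes are removed, and as TMM-scaled CPM. Points are libraries and bars are the mean and SD of 3, and the groups overlap only on the TMM scale.

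Per kilobase of exon, a scale on which genes can be compared, the 31 subunits lay close to each other. In FB-GAL4 their levels ran from 73.0 CPM per kilobase for Rpn3, a lid subunit, to 150 for Prosbeta2, a 2.05-fold range with a median of 109. They sat between percentiles 90.9 and 95.3 of all tested genes with a known length, whose median was 12.5 CPM per kilobase. Core genes were the tighter group. Their levels spanned 110 to 150 CPM per kilobase with a coefficient of variation of 10.8%, against 73.0 to 133 and 19.1% for the regulatory particle. Within the alpha ring the 6 well-counted genes differed by at most 1.20-fold. In FB-Dp110DN the range was 69.1 CPM per kilobase for Rpn3 to 144 for Prosbeta7, another beta subunit, so Rpn3 kept the lowest place.

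Members also followed each other across libraries. The correlation of each subunit's log2 CPM with the mean of the other 30 had a median of 0.818 over the 6 libraries, from 0.288 for Rpn13 to 0.980 for Prosbeta4. It was above 0.8 for 17 of 31 subunits (54.8%). All tested genes, the members among them, were instead correlated with the mean of all 31, and 7.13% were above 0.8. This is a description over 6 libraries that share scaling factors, group and replicate structure. The SD of log2 CPM over the 6 libraries was 0.113 for the median subunit, with a range of 0.070 to 0.189, and 0.308 for the median tested gene. Among the 442 tested genes with FB-GAL4 levels per kilobase in the members' range, the median SD was 0.289, and 67.9% had an SD above that of the most variable subunit. An unadjusted p under 0.05 in edgeR was reached by 28.1% of those genes. Their median log2 fold change was 0.13, against -0.10 for the 31 subunits.

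Prosalpha1 was the exception among the canonical subunits. It encodes an alpha subunit, yet had 18, 24 and 5 counts in FB-Dp110DN and 8, 3 and 15 in FB-GAL4. This is 73 counts in all, and its FB-GAL4 level was 0.233% of that of the next lowest alpha ring gene. Its variant copy Prosalpha1R, also on 2R, had 1, 2 and 0 counts against 0, 1 and 1. The pair is known to be nearly identical, and how reads that align to more than 1 place were treated is not given, so the level of either gene is uncertain. Whether reads were lost to the pair was not tested. The log2 fold change of Prosalpha1 was 0.92 with a standard error of 0.78 (edgeR, adjusted p = 0.460), pair 3 went the other way, and the value was 0.46 without replicate 1, 0.34 without replicate 2 and 2.05 without replicate 3.

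Variant copies were near the floor of the assay. Many fly proteasome genes have such a copy, and several are known to be expressed in the testis. Of the 15 copies, 6 had no counts in any library and 5 had at most 3 in any library. A floor of 3 counts is 0.0814 to 0.133 CPM here and covers counting error only. The 4 copies above it were Rpt6R, Rpt3R, Prosbeta2R2 and Rpt4R. Prosbeta2R2 had 2, 4 and 7 counts against 4, 0 and 1, and Rpt4R had 0, 1 and 0 counts against 1, 0 and 4. The 15 copies together held 24, 30 and 42 counts in FB-Dp110DN and 55, 52 and 93 in FB-GAL4, or 1.06, 0.88 and 1.43 CPM against 1.56, 2.11 and 2.90 CPM. That is a tiny part of the proteasome RNA, and most of it came from the ATPase copies.

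Rpt6R and Rpt3R passed the filter on low counts, which a gene can pass through its higher group alone. Rpt6R, a copy of Rpt6 on 3R, had 7, 13 and 16 counts in FB-Dp110DN and 30, 18 and 50 in FB-GAL4. These are 0.31, 0.38 and 0.54 CPM against 0.85, 0.73 and 1.56 CPM. The groups did not overlap and all 3 pairs were lower in FB-Dp110DN, with a log2 fold change of -1.32, a standard error of 0.40 and a 95% interval from -2.29 to -0.35. It was the only member with an unadjusted p under 0.05 in edgeR, which 26.1% of all tested genes reached (12.5% with a lower estimate), and it was not called (adjusted p = 0.153). DESeq2 gave it no adjusted p. Rpt3R, a copy of Rpt3 on 3R, had 11, 5 and 17 counts against 19, 32 and 36. In CPM that is 0.48, 0.15 and 0.58 against 0.54, 1.30 and 1.12, so that FB-Dp110DN replicate 3 lay above FB-GAL4 replicate 1 and the groups overlapped. The log2 fold change was -1.33 with a standard error of 0.59 (edgeR, adjusted p = 0.212), and without replicate 2 it was -0.62. Of 6 testis genes, 4 (can, Mst84Da, bb8 and dj) were at or under the floor in every library, and all 6 summed to 0.92 to 1.87 CPM in FB-Dp110DN and 1.09 to 2.59 CPM in FB-GAL4.

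**Figure D4:**
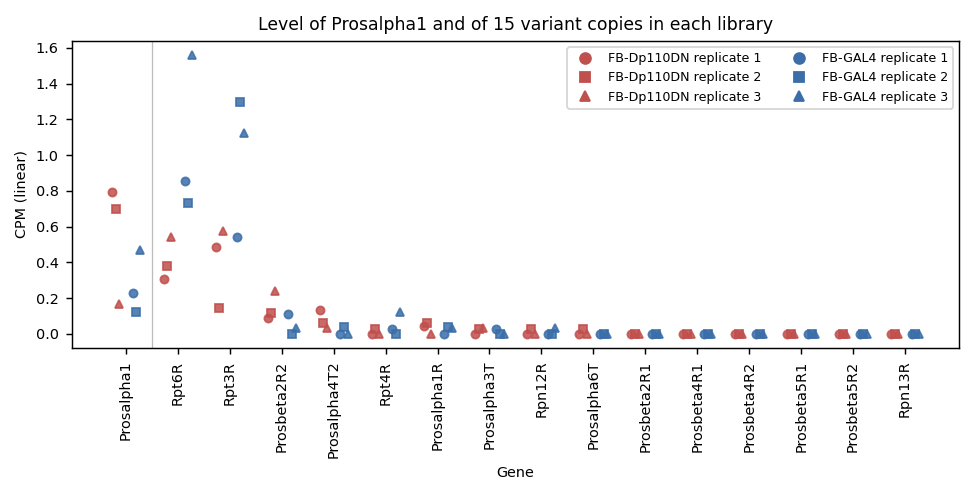
Level of Prosalpha1 and of the 15 variant copies in TMM-scaled CPM on a linear axis, red for FB-Dp110DN and blue for FB-GAL4, with a mark for each library. Rpt6R is lower in all FB-Dp110DN libraries (0.31 to 0.54 CPM) than in all FB-GAL4 libraries (0.73 to 1.56 CPM), and most other copies lie near 0.

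Genes that serve the proteasome were looked at from a list of 29 tested genes. The list held assembly factors, activators and inhibitors, deubiquitinases, shuttle factors, partners of the segregase, ubiquitin genes and regulators. None was called in edgeR, where 0.0289% of all tested genes were. DESeq2 called 0 of the list and 10.7% of all genes, and an unadjusted p under 0.05 in edgeR was reached by 1 of the 29 and by 26.1% of all genes. Estimates were lower for 18 and higher for 11, with a median log2 fold change of -0.03 and a range of -0.44 to 0.45. Groups did not overlap for 6 of the 29 and for 32.6% of all tested genes. Pomp, the factor that matures the core particle, had 102, 79.2 and 95.3 CPM in FB-Dp110DN and 105, 86.7 and 90.8 CPM in FB-GAL4. The log2 fold change of Pomp was -0.03 with a standard error of 0.12, and its groups overlapped.

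Of the 7 regulators on the list, 4 had higher and 3 had lower estimates. Groups did not overlap for 2, foxo and Hsf, and for 32.6% of all tested genes. The transcription factor cnc, which induces proteasome genes in flies, had 348, 374 and 235 CPM against 324, 328 and 244 CPM. The log2 fold change was 0.08 with a standard error of 0.13, and replicate 3 was the lowest library in both groups. Its inhibitor Keap1 had 37.1, 32.5 and 17.3 CPM against 38.8, 25.3 and 21.0 CPM, a log2 fold change of 0.01 with a standard error of 0.17. The insulin-regulated factor foxo had 150, 167 and 137 CPM against 130, 135 and 109 CPM. All 3 FB-Dp110DN libraries of foxo were above all FB-GAL4 libraries, with a log2 fold change of 0.28 and a standard error of 0.12, and the test was not passed (edgeR, adjusted p = 0.191). Hsf, the heat shock factor, had 80.2, 65.5 and 67.2 CPM against 97.5, 109 and 82.7 CPM. It was the gene with an unadjusted p under 0.05 in edgeR, with no overlap, a log2 fold change of -0.44 and a standard error of 0.14, and was not called (adjusted p = 0.154).

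Ubiquitin genes and the enzymes around the particle gave values on both sides of 0. The log2 estimates of the polyubiquitin genes Ubi-p5E and Ubi-p63E were 0.20 and 0.26, and those of the ubiquitin fusion genes RpL40 and RpS27A were 0.14 and 0.12. Uba1, the enzyme that activates ubiquitin, stood at -0.33 with 387, 338 and 407 CPM against 432, 529 and 465 CPM, without overlap (edgeR, adjusted p = 0.223). The core activator REG stood at -0.23 with 122.2, 113.1 and 123.4 CPM against 141, 144 and 137 CPM, also without overlap. The deubiquitinases Usp14 and Uch-L5 were at -0.17 and -0.38, and the shuttle factors Rad23 and rngo at -0.17 and -0.21. The highest estimate was that of Npl4, a partner of the segregase, at 0.45 with 1098, 1635 and 522 CPM against 834, 774 and 566 CPM. Its groups overlapped, since FB-Dp110DN replicate 3 lay below all 3 FB-GAL4 libraries, and the log2 difference of pair 3 was -0.12. Without replicate 2 Npl4 stood at 0.14 and without replicate 3 at 0.74. Uch-L5 stood at -0.09 without replicate 2 and at -0.59 without replicate 3, while Usp14 was at -0.05, Rad23 at -0.11, Uba1 at -0.18 and RpL40 at 0.07 without replicate 2. Without replicate 3 Ubi-p5E stood at 0.0041 and RpS27A at 0.060. Without replicate 1, RpL40 and RpS27A stood at 0.22 and 0.24, and without replicate 2 Ubi-p5E stood at 0.34. None of these genes passed the test, and they were chosen for mention after their values were seen.

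**Figure D5:**
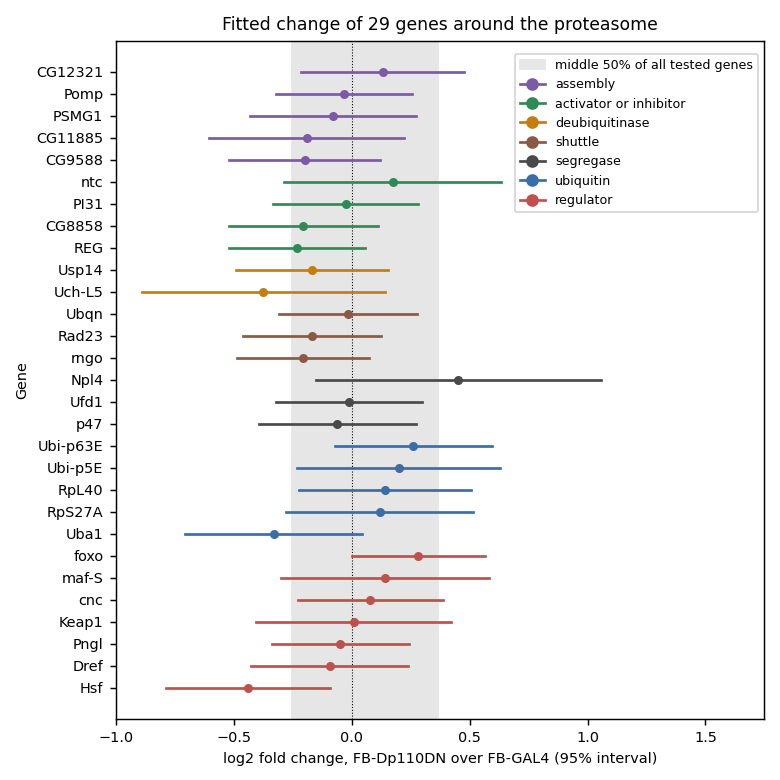
Log2 fold change (FB-Dp110DN over FB-GAL4) of 29 genes that serve the proteasome, coloured by function, with 95% intervals from the edgeR fit and a grey band for the middle 50% of all tested genes. Estimates run from -0.44 for Hsf to 0.45 for Npl4, and none passed the adjusted p threshold.

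Overlapping genes limit a few values. Exons of 13 of the 32 members other than variant copies overlap those of genes on the opposite strand, over 0.0615% to 15.7% of their length, with Rpn9, a lid subunit, at the top. No source used here says whether counting took strand into account, so reads in those stretches cannot be told apart from those of the partner.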

How the data were processed

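RNA from fat bodies of 5 flies per sample (per the labels; the study's methods give another number) was sequenced as 3 FB-Dp110DN and 3 FB-GAL4 libraries of an mRNA protocol. The authors aligned reads with TopHat2 2.0.11 to BDGP5 and counted them per gene with HTSeq. The deposited values used were these raw counts. The 6 columns of the authors' own comparison (mean, log2 fold change, its standard error, statistic, p-value and adjusted p-value) were not used. Settings for strand and for reads with several alignments are not given in the sources used here. The study's methods call the samples of a group biological repeats.

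Symbols, arms and exonic lengths came from the later BDGP6 annotation, so no coordinates are given. The rule finds 48 symbols, of which Prosalpha4T1 is not analysed here. Members and lists were chosen with earlier results of these data known. CG6746 was dropped from the list of genes that serve the proteasome because the reference names it as Hacd1, and TER94 is not analysed here. Of the marker genes, wupA, vas and PPO1 are not analysed here. Genes given per library were, in each role, the subunits with the highest and lowest estimate, the catalytic subunits, Rpn6, Rpn11, Prosalpha1 and Prosalpha1R, and from the list those with an unadjusted p under 0.05, cnc, Keap1, foxo and Pomp. Other genes given per library were chosen after their values were seen.

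Low genes were removed with filterByExpr (minimum count 10), libraries were TMM-scaled, and edgeR 4.0.16 in R 4.3.3 fitted group and replicate number. P-values were adjusted over all 10398 tested genes, with 0.05 as the threshold, and log2 CPM used a prior count of 2. Standard errors were derived from each estimate and its F statistic. The study's methods pair mutant and control samples of a day. Deviations from the group means correlated between same-numbered libraries (r = 0.416, 0.189 and 0.590 across genes). Libraries of different number were not compared, so these values cannot show that the pairing is right. Control replicates 2 and 3 share a description and are numbered by title only. The main edgeR fit was also run on simulated counts. These had no replicate effect and changes larger than any member's estimate, so that run cannot speak to small changes in these libraries. Alternatives were no block, DESeq2 1.42.0 size factors and Wald test, an unfiltered table, a minimum of 10 counts per library, leaving out each replicate, a total without mitochondrial, muscle and gut genes, and an adjusted p under 0.1. Robust and legacy quasi-likelihood fits and library totals alone were chosen after seeing the data.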

Additional observations from a re-analysis of the deposited data

How the results depend on the processing

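No member was called under any of the 12 alternatives or with an adjusted p under 0.1. The number of genes called over all tested genes was 3 in the main fit, 970 with DESeq2's Wald test, 5 without a filter, 5 with mitochondrial, muscle and gut genes out of the library size, 7 with library totals only and 6 at an adjusted p under 0.1. It ran from 0 to 862 when each replicate was left out in turn, with 862 without replicate 3. Without the replicate block 0 genes were called in edgeR, where 2551 had an unadjusted p under 0.05, and the block changed no call of a member. The median log2 fold change of the 34 tested members was -0.11, and -0.32 with library totals only. It ran from -0.15 to -0.03 with a replicate left out, the last without replicate 2. The cause of these differences was not tested.

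Of 609 recomputed values of single genes, 582 kept their direction and 27 changed sign, none of them called. With DESeq2 size factors and with its Wald test Prosbeta5 stood at 0.0011 and Rpn6 at 0.013. With library totals only, Rpn13 stood at -0.20, Prosbeta1 at -0.18, Prosbeta7 at -0.20, Ubi-p5E at -0.016, RpL40 at -0.075, RpS27A at -0.098, cnc at -0.14 and Keap1 at -0.21. With each replicate left out in turn, estimates ran from -0.10 to 0.010 for Prosalpha3, -0.24 to 0.0088 for Prosalpha5, -0.23 to 0.060 for Prosbeta3, -0.10 to 0.035 for Prosbeta5, -0.080 to 0.092 for Prosbeta7, -0.087 to 0.0054 for Rpt1, -0.11 to 0.023 for Rpn1, -0.15 to 0.014 for Rpn2, -0.021 to 0.029 for Rpn6, -0.16 to 0.023 for Rpn7, -0.076 to 0.018 for Pomp, -0.17 to 0.15 for Keap1. Prosalpha1, Rpt6R and Rpt3R could not be fitted with at least 10 counts required in every library. Counts were low for Prosalpha1 and the variant copies, and every estimate rests on 3 libraries a group.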
